A study of Arabidopsis thaliana with 15 samples.

Results

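Proteins of the VQ family, small plant proteins named for a short motif that holds a valine and a glutamine, were represented here by 6 genes. They were the members of a list of 10 loci that had a row annotated to exactly 1 gene, among 16550 such genes on an Affymetrix AraGene 1.0 ST array. The 6 loci were AT1G17147, AT1G78410, AT2G44340, AT1G21326, AT2G22880 and AT4G20000, and none of them has a symbol in the reference table. The other 4 loci of the list had no row of their own and were not analysed here. These were AT1G28280 (MVQ1), AT3G15300 (MVQ4), AT3G22160 (JAV1, a repressor of jasmonate-dependent defence) and AT4G37710 (VQ29). The list was drawn up with earlier results of these arrays known. AT1G17147 and AT1G78410 were chosen by their large falls against level flight in those results, and AT2G44340, which stands beside them at the head of the list, is treated as chosen by its values too. For these 3 genes values are given without a p-value.

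VQ proteins bind WRKY transcription factors, which recognise short sequences in the promoters of defence and stress genes, and they raise or lower the activity of the factor they bind. Several VQ proteins are substrates of MAP kinases, the last members of a phosphorylation cascade that carries signals from the cell surface to the nucleus. In Arabidopsis, family members have been studied mostly in defence, in responses to salt and light, and in seed development.

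The 15 arrays measured total RNA of whole roots from 10-day-old seedlings grown in 24 h light. All seedlings had the Wassilewskija (WS) background and carried pCaMV35S:14-3-3κ:GFP, a fusion of the regulatory protein 14-3-3κ to a fluorescent reporter under a promoter active in most tissues, so no group lacked the transgene. Roots were fixed with RNAlater in Kennedy fixation tubes on a C-9 aircraft in level flight (n = 4), after parabola 1 (n = 4), after parabola 3 (n = 4) or after parabola 10 (n = 3). A parabola is a manoeuvre in which reduced gravity lies between phases of raised gravity, and the comparison asks which transcripts differ after 1, 3 or 10 of them. All pools of a condition came from 1 tube. P-values therefore measure the spread between pools of 1 tube, and condition, tube and time on board cannot be told apart. The values are deposited log2 expression values after robust multi-array averaging (RMA), so a difference of 1 is a 2-fold change. They compare samples for 1 gene, and levels of different genes are not set against each other. Since whole roots were measured, fewer cells of a type and less RNA per cell cannot be told apart.

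Array medians over the tested genes lay between 3.65 and 3.70, which serves below as a mark for dim signals. Of the marker genes for cell types, 2 of 4 for root hairs, 1 of 8 for photosynthetic shoot cells and none for endodermis, stele or root cap were measured. Here and below, a measured gene is one with a row annotated to exactly 1 gene. Other genes may still be among the rows with no gene in the annotation. The root hair expansin EXPA7 averaged 5.67 in level flight, then 5.98, 6.22 and 6.48 after parabolas 1, 3 and 10, and passed the test as higher after parabolas 3 and 10. The other root hair gene, EXPA18, averaged between 6.31 and 6.55 in the 4 groups and did not pass. LHB1B2, a light-harvesting protein of green tissue, averaged 3.90 in level flight and 3.54 after parabola 10, close to the array median, and did not pass. The part of root hair content in the results below was not tested.

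AT1G17147, AT1G78410 and AT4G20000 were lower after parabola 1, parabola 3 and parabola 10 than in level flight, and each had its lowest mean after parabola 10. In each of the 3 genes, all 11 parabola arrays lay below the lowest level-flight array. AT1G17147 had values of 6.77, 6.47, 6.65 and 6.94 in level flight, 4.75, 4.83, 4.47 and 4.80 after parabola 1, 4.39, 4.45, 5.05 and 4.25 after parabola 3, and 3.39, 3.56 and 3.81 after parabola 10. The parabola 10 arrays were below every array of the other 3 groups, and 2 of 3 were below their array median. Against level flight, AT1G17147 was 3.98-fold lower after parabola 1 (log2 fold change -1.99 ± 0.16, SE), 4.51-fold lower after parabola 3 (-2.17 ± 0.16) and 8.69-fold lower after parabola 10 (-3.12 ± 0.17).

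AT1G78410 had values of 5.09, 5.24, 5.28 and 5.49 in level flight, 3.15, 3.20, 2.96 and 2.92 after parabola 1, 3.11, 2.52, 3.71 and 2.92 after parabola 3, and 2.21, 2.60 and 2.52 after parabola 10. Level flight stood apart from all other arrays, whereas parabola 1 lay within the range of parabola 3. The gene was 4.65-fold lower after parabola 1 than in level flight (-2.22 ± 0.18), 4.62-fold lower after parabola 3 (-2.21 ± 0.18) and 7.12-fold lower after parabola 10 (-2.83 ± 0.19). All parabola arrays except replicate 3 of parabola 3 were below their array median, so the lower values of this gene lie in the range of dim signals, where a fold change on an array can be understated.

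AT4G20000 had its group means in the order of AT1G17147, with smaller differences. Its values were 4.57, 4.47, 4.57 and 4.66 in level flight, 3.53, 3.85, 4.00 and 4.14 after parabola 1, 3.58, 3.38, 3.73 and 3.48 after parabola 3, and 3.34, 3.45 and 2.97 after parabola 10. Neighbouring parabola groups overlapped, and only parabola 10 against parabola 1 did not. The gene fell against level flight in limma's test with Benjamini-Hochberg adjustment over all 16550 genes. It was 1.61-fold lower after parabola 1 (-0.69 ± 0.13, adjusted p = 0.00223), 2.03-fold lower after parabola 3 (-1.02 ± 0.13, adjusted p = 4.01e-05) and 2.48-fold lower after parabola 10 (-1.31 ± 0.14, adjusted p = 4.17e-06). In 1 of 4 parabola 1 arrays, 3 of 4 parabola 3 arrays and 3 of 3 parabola 10 arrays the gene was below the array median.

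**Figure D1:**
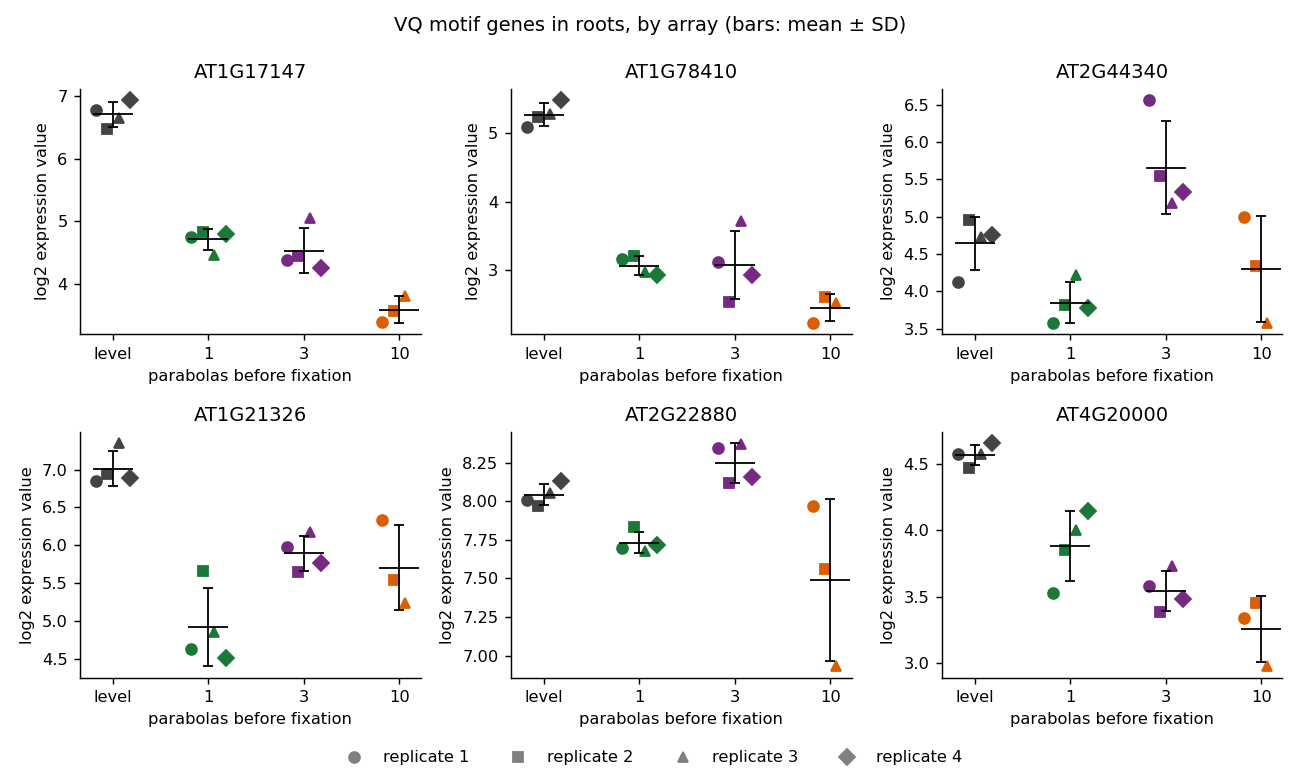
Log2 expression value of each of the 6 VQ genes (vertical axis, a separate scale per panel) in level flight and after 1, 3 or 10 parabolas; each symbol is 1 array, its shape gives the replicate number, and bars are the mean and SD. AT1G17147, AT1G78410, AT1G21326 and AT4G20000 have all 11 parabola arrays below the level-flight arrays, while AT2G44340 and AT2G22880 are highest after parabola 3.

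AT1G21326, AT2G44340 and AT2G22880 had another order, with means after parabola 3 that were 0.52 to 1.81 log2 units above those after parabola 1. AT1G21326 had values of 6.85, 6.95, 7.35 and 6.89 in level flight, 4.63, 5.66, 4.86 and 4.51 after parabola 1, 5.97, 5.65, 6.18 and 5.77 after parabola 3, and 6.33, 5.55 and 5.24 after parabola 10. Every parabola array was below every level-flight array, the lowest ones after parabola 1, and the parabola groups overlapped each other. The gene fell in all 3 limma comparisons with level flight. It was 4.26-fold lower after parabola 1 (-2.09 ± 0.24, adjusted p = 1.23e-05), 2.17-fold lower after parabola 3 (-1.12 ± 0.24, adjusted p = 0.00426) and 2.47-fold lower after parabola 10 (-1.30 ± 0.25, adjusted p = 0.00174).

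AT2G44340 was the only one of the 6 genes with a parabola group wholly above level flight. Its values were 4.13, 4.96, 4.73 and 4.76 in level flight, 3.58, 3.81, 4.22 and 3.78 after parabola 1, 6.56, 5.55, 5.18 and 5.32 after parabola 3, and 5.00, 4.34 and 3.57 after parabola 10. All parabola 3 arrays were above all arrays of the other groups, while level flight overlapped both parabola 1 and parabola 10. AT2G44340 was 2.02-fold higher after parabola 3 than in level flight (1.01 ± 0.29). The difference from level flight was -0.79 ± 0.29 after parabola 1 and -0.34 ± 0.31 after parabola 10. Its SD was 0.63 after parabola 3 and 0.71 after parabola 10, against 0.36 in level flight, and the highest array of parabola 3 was replicate 1.

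AT2G22880 was the least variable of the 6 genes outside parabola 10. It had values of 8.01, 7.97, 8.06 and 8.13 in level flight, 7.70, 7.83, 7.68 and 7.72 after parabola 1, 8.34, 8.12, 8.37 and 8.16 after parabola 3, and 7.97, 7.56 and 6.93 after parabola 10. Parabola 1 lay wholly below level flight, parabola 3 overlapped it, and parabola 10 spread over 1.04 log2 units. In limma's test AT2G22880 fell after parabola 10 (1.47-fold lower, -0.55 ± 0.16, adjusted p = 0.0292). The differences after parabola 1 (-0.31 ± 0.15, adjusted p = 0.273) and parabola 3 (0.21 ± 0.15, adjusted p = 0.449) did not pass. These standard errors rest on 1 spread shared by all 4 groups. The SD was 0.07 in level flight and 0.07 after parabola 1, but 0.52 after parabola 10. The parabola 1 difference passed under 1 of 26 alternatives (limma adjusted p = 0.0390), so its failure to pass does not show that the groups were alike. Without replicate 3 of parabola 10, the lowest array, the difference for parabola 10 was -0.28 with an adjusted p of 0.162. The call was also lost without replicate 2 of parabola 10 or without replicate 1, 3 or 4 of level flight, and the adjusted p over these 5 omissions lay between 0.0534 and 0.162. In the reference table AT2G22880 lies inside the range of AT2G22870 (EMB2001), which is not among the tested genes, so its values are uncertain to the extent that probes could read both.

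After parabola 1, limma called 4 of the 6 genes lower and 0 higher, where 4.85% of all tested genes were called lower and 3.47% higher. After parabola 3 it called 4 lower and 1 higher, beside 6.69% lower and 4.48% higher among all genes. After parabola 10 it called 5 lower and 0 higher, beside 7.11% lower and 7.53% higher. By non-overlapping arrays alone, 5 of the 6 were lower after parabola 1 (7.25% of all genes), 4 after parabola 3 (8.37%) and 4 after parabola 10 (10.6%). Those wholly above level flight were 0 after parabola 1 (6.72% of all genes), 1 after parabola 3 (7.4%) and 0 after parabola 10 (13.6%). Some of these genes were chosen for these same comparisons, so the counts, and the medians in the next sentence, describe the genes and support nothing further. The median log2 fold change of the 6 genes against level flight was -1.39, -1.07 and -1.31 after parabolas 1, 3 and 10, while over all genes it was 0.00796, 0.0294 and 0.0447. The 3 comparisons share the level-flight arrays.

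The F-test over the 3 comparisons with level flight called all 6 genes, and 15.7% of all tested genes. AT1G17147, AT1G78410 and AT2G44340, chosen or treated as chosen by their values, are among the 6, so this count is a description only. The balance of lower and higher calls over all genes moved with the scaling. After parabola 1, for example, 58.3% of all calls were lower as deposited, 73.1% after centring each array on its median and 69.1% after centring on reference genes. After parabola 10 the share was 48.5% as deposited and 39.6% with median centring. The direction of the 6 genes in their called comparisons with level flight was kept under every scaling tried, and the number called was 4 after parabola 1, 5 after parabola 3 and 4 to 5 after parabola 10.

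Between parabola groups, AT2G44340 had the largest differences of the 6 genes in the steps that involve parabola 3, and AT1G17147 the largest between parabolas 10 and 1. In parabola 3 against parabola 1, AT1G17147 (-0.18 ± 0.16) and AT1G78410 (0.01 ± 0.18) differed by about their standard error or less. AT2G44340 was 3.50-fold higher after parabola 3 than after parabola 1 (1.81 ± 0.29), with no overlap. AT1G21326 was 1.97-fold higher after parabola 3 than after parabola 1 (0.98 ± 0.24, limma adjusted p = 0.0427). That call was lost without any 1 of 11 arrays, with an adjusted p between 0.0517 and 0.131. These were replicates 1, 2 and 4 of level flight, replicates 1, 3 and 4 of parabola 1, all 4 of parabola 3 and replicate 2 of parabola 10. AT2G22880 (0.52 ± 0.15, adjusted p = 0.104) did not pass although all its parabola 3 arrays lay above its parabola 1 arrays, and it passed without replicate 1 (adjusted p = 0.0343) or replicate 3 (adjusted p = 0.0157) of parabola 10. AT4G20000 (-0.34 ± 0.13, adjusted p = 0.229) did not pass. In all, 2 of the 6 genes were called higher and 0 lower, beside 0.761% and 0.961% of all genes. Genes chosen, or treated as chosen, by their values are counted here and in the comparisons below. These counts too describe the genes and support nothing further. By non-overlapping arrays 2 were higher and 0 lower, beside 3.72% and 3.82%.

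Parabola 10 against parabola 3 gave lower means for all 6 genes. AT1G17147 was 1.93-fold lower after parabola 10 than after parabola 3 (-0.95 ± 0.17), with no overlap. AT2G44340 was 2.55-fold lower (-1.35 ± 0.31), also with no overlap. AT1G78410 differed by -0.62 ± 0.19 with overlapping arrays. AT2G22880 fell 1.69-fold in limma's test (-0.76 ± 0.16, adjusted p = 0.0293). Its call was lost without replicate 1, 3 or 4 of parabola 3 or replicate 2 or 3 of parabola 10 (adjusted p between 0.0513 and 0.0863), and without replicate 3 of parabola 10 the difference was -0.48. AT1G21326 (-0.19 ± 0.25) and AT4G20000 (-0.29 ± 0.14, adjusted p = 0.411) did not pass. The count was 3 lower and 0 higher of 6, again with genes chosen by their values included, beside 0.574% and 0.592% of all genes. By non-overlapping arrays it was also 3 lower and 0 higher, beside 3.86% and 5.81%.

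In parabola 10 against parabola 1, AT1G17147, AT1G78410 and AT4G20000 had no overlap between the groups and the other 3 genes overlapped. AT1G17147 was 2.18-fold lower after parabola 10 than after parabola 1 (-1.13 ± 0.17) and AT1G78410 differed by -0.62 ± 0.19. AT4G20000 fell 1.54-fold in limma's test (-0.63 ± 0.14, adjusted p = 0.0199), and the call was lost without replicate 3 or 4 of parabola 1 or replicate 3 of parabola 10 (adjusted p between 0.0537 and 0.0743). AT1G21326 had a higher mean after parabola 10 (0.79 ± 0.25, adjusted p = 0.0993) and passed without replicate 2 of parabola 1 (adjusted p = 0.0240) or replicate 3 of parabola 10 (adjusted p = 0.0419). AT2G44340 differed by 0.45 ± 0.31 and AT2G22880 by -0.24 ± 0.16 (adjusted p = 0.469). The limma count was 2 lower and 0 higher of 6, beside 1.82% and 1.73% of all genes, and by non-overlapping arrays 3 lower and 0 higher, beside 6.28% and 8.41%. The 3 comparisons between parabola groups share arrays in pairs.

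**Figure D2:**
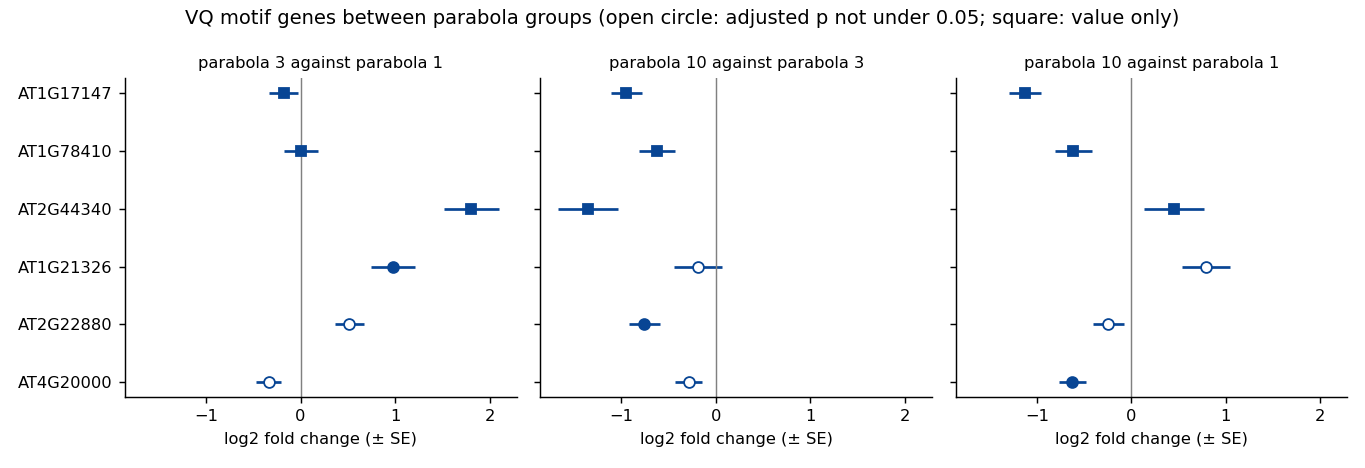
Log2 fold change with its standard error (horizontal axis) of the 6 VQ genes for parabola 3 against parabola 1, parabola 10 against parabola 3 and parabola 10 against parabola 1; filled circles have an adjusted p under 0.05, open circles do not, and squares are genes given without a p-value. AT2G44340 is at 1.81 in the left panel and at -1.35 in the middle one, while AT1G17147 is near 0 in the left panel and negative in the other panels.

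Within parabola groups, 1 array was often the highest or lowest for several of the genes. Replicate 3 of parabola 3 held the highest value of its group for 5 of the 6 genes, namely AT1G17147 (5.05), AT1G78410 (3.71), AT1G21326 (6.18), AT2G22880 (8.37) and AT4G20000 (3.73), and the lowest for AT2G44340 (5.18). Replicate 3 of parabola 10 held the lowest value of its group for AT2G44340 (3.57), AT1G21326 (5.24), AT2G22880 (6.93) and AT4G20000 (2.97), and the highest for AT1G17147 (3.81). Replicate 1 of parabola 10 was the highest array of its group for AT2G44340, AT1G21326 and AT2G22880. Over the 15 arrays AT1G17147 and AT1G78410 had a Pearson r of 0.975, and of 0.687 once each group's mean had been subtracted. AT1G17147 and AT4G20000 had an r of 0.917 over the arrays and of 0.106 within groups. AT1G21326 and AT2G22880 had the reverse pattern, with 0.513 over the arrays and 0.698 within groups. AT2G44340 and AT2G22880 had 0.754 and 0.612, and AT1G17147 and AT2G44340 had -0.02 and -0.57. The points of all these correlations share their arrays, groups and scaling, and the values are descriptions.

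The gene whose values were most like both AT1G17147 and AT1G78410 was AT1G17145, the next gene to AT1G17147 on the chromosome in the reference table, with no gene between them. Its Pearson r over the 15 arrays was 0.983 with AT1G17147 and 0.988 with AT1G78410, and within groups 0.758 and 0.799. AT1G17145 had values of 8.37, 8.02, 8.53 and 8.50 in level flight, 6.43, 6.79, 6.42 and 6.30 after parabola 1, 6.41, 6.17, 6.96 and 6.09 after parabola 3, and 5.63, 5.95 and 5.79 after parabola 10. As in AT1G17147, level flight was highest, parabola 10 was lowest, and replicate 3 was the highest array of parabola 3. Because AT1G17145 was picked by its likeness over these same 15 arrays, a shared order is largely given by that choice. The log2 fold changes against level flight were -1.87 ± 0.17, -1.95 ± 0.17 and -2.57 ± 0.18 after parabolas 1, 3 and 10. AT1G17150, also close to AT1G17147 in locus number, was dim, with group means between 2.41 and 2.57. The F-test did not call AT1G17150 (adjusted p = 0.698). Next in likeness to AT1G17147 were AT3G01513 (0.978) and OPCL1 (0.976), an enzyme of jasmonate synthesis whose r within groups was 0.303. Next to AT1G78410 were SRC2 (0.984) and AT4G04745 (0.982). The genes most like AT2G44340 were AT1G64540 (0.883), AT1G10990 (0.873) and AT1G15125 (0.869), less close than those of the other pair of genes.

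**Figure D3:**
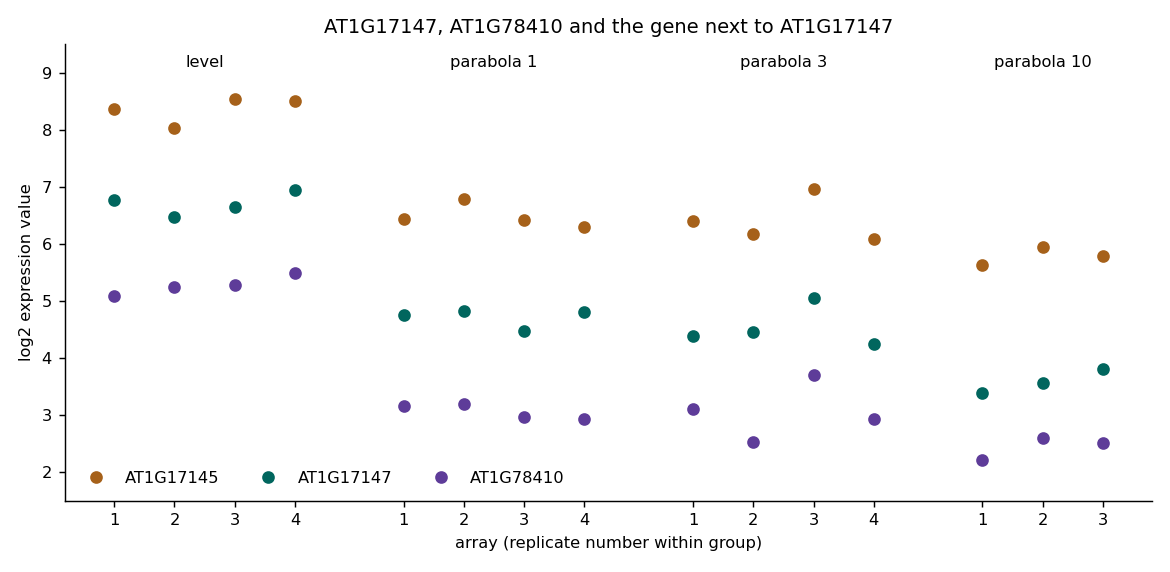
Log2 expression value (vertical axis) of AT1G17145, AT1G17147 and AT1G78410 in each of the 15 arrays, placed by group and replicate number (horizontal axis). All 3 genes are highest in level flight and have their highest parabola 3 value in replicate 3, at 6.96, 5.05 and 3.71. AT1G17145 was picked by its likeness to the other genes shown over these same arrays.

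Of 24 other loci of the VQ family, taken from general knowledge of the family, 15 were measured. Limma called 3 of them lower and 2 higher after parabola 1, beside 4.85% lower and 3.47% higher among all genes. It called 3 lower and 2 higher after parabola 3 (6.69% and 4.48% of all genes), and 3 lower and 3 higher after parabola 10 (7.11% and 7.53%). Their median log2 fold changes against level flight were -0.03, 0.15 and 0.13. Leaving out 1 array at a time gave 3 to 6 called genes after parabola 1, 4 to 6 after parabola 3 and 6 to 7 after parabola 10. The F-test called 7 of the 15, beside 15.7% of all genes.

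AT3G56880, which had the smallest F-test p among them, ran between 9.37 and 9.69 in level flight, between 8.06 and 8.53 after parabola 1, between 8.27 and 8.41 after parabola 3 and between 7.64 and 8.09 after parabola 10. No parabola group overlapped level flight. It fell 2.32-fold after parabola 1 (-1.21 ± 0.12, limma adjusted p = 2.59e-06), 2.31-fold after parabola 3 (-1.21 ± 0.12, adjusted p = 2.40e-06) and 3.18-fold after parabola 10 (-1.67 ± 0.13, adjusted p = 1.07e-07). AT1G80450 fell by 0.86 ± 0.17, 0.71 ± 0.17 and 1.18 ± 0.18 on the log2 scale after parabolas 1, 3 and 10 (limma adjusted p = 0.00237, 0.00905 and 0.000173). Its lower values were dim, below the array median in 4 of 4 parabola 1, 3 of 4 parabola 3 and 3 of 3 parabola 10 arrays. AT4G15120 fell by 0.61 ± 0.15, 0.60 ± 0.15 and 0.96 ± 0.16 (limma adjusted p = 0.0145, 0.0135 and 0.000466). Its parabola 1 call was lost without replicate 1 or 3 of level flight or replicate 3 or 4 of parabola 1 (adjusted p between 0.0533 and 0.0592), and its parabola 3 call without replicate 1 of level flight (adjusted p = 0.0510).

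AT2G42140 moved in the other direction, from the dim end of the scale. It ran between 2.63 and 2.97 in level flight, between 3.27 and 3.40 after parabola 1, between 3.49 and 4.18 after parabola 3 and between 3.25 and 3.61 after parabola 10, again with no overlap with level flight. It rose by 0.49 ± 0.13 after parabola 1 (limma adjusted p = 0.0268), by 0.91 ± 0.13 after parabola 3 (adjusted p = 0.000142) and by 0.63 ± 0.14 after parabola 10 (adjusted p = 0.00550). Its parabola 1 call was lost without replicate 1, 2 or 3 of level flight or replicate 1, 3 or 4 of parabola 1 (adjusted p between 0.0510 and 0.0903). AT1G21320 was looked at after its values were seen, because the reference table places 1 gene between it and AT1G21326. It rose after parabola 3 (0.67 ± 0.12, limma adjusted p = 0.00116), where AT1G21326 fell, and did not pass after parabola 1 (0.17 ± 0.12, adjusted p = 0.510) or parabola 10 (0.31 ± 0.13, adjusted p = 0.130). AT1G21320 was dim throughout, with a mean of 2.73 in level flight and 3.41 after parabola 3. It was below the array median in 3 of 4 parabola 3 arrays and in every array of the other groups.

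**Figure D4:**
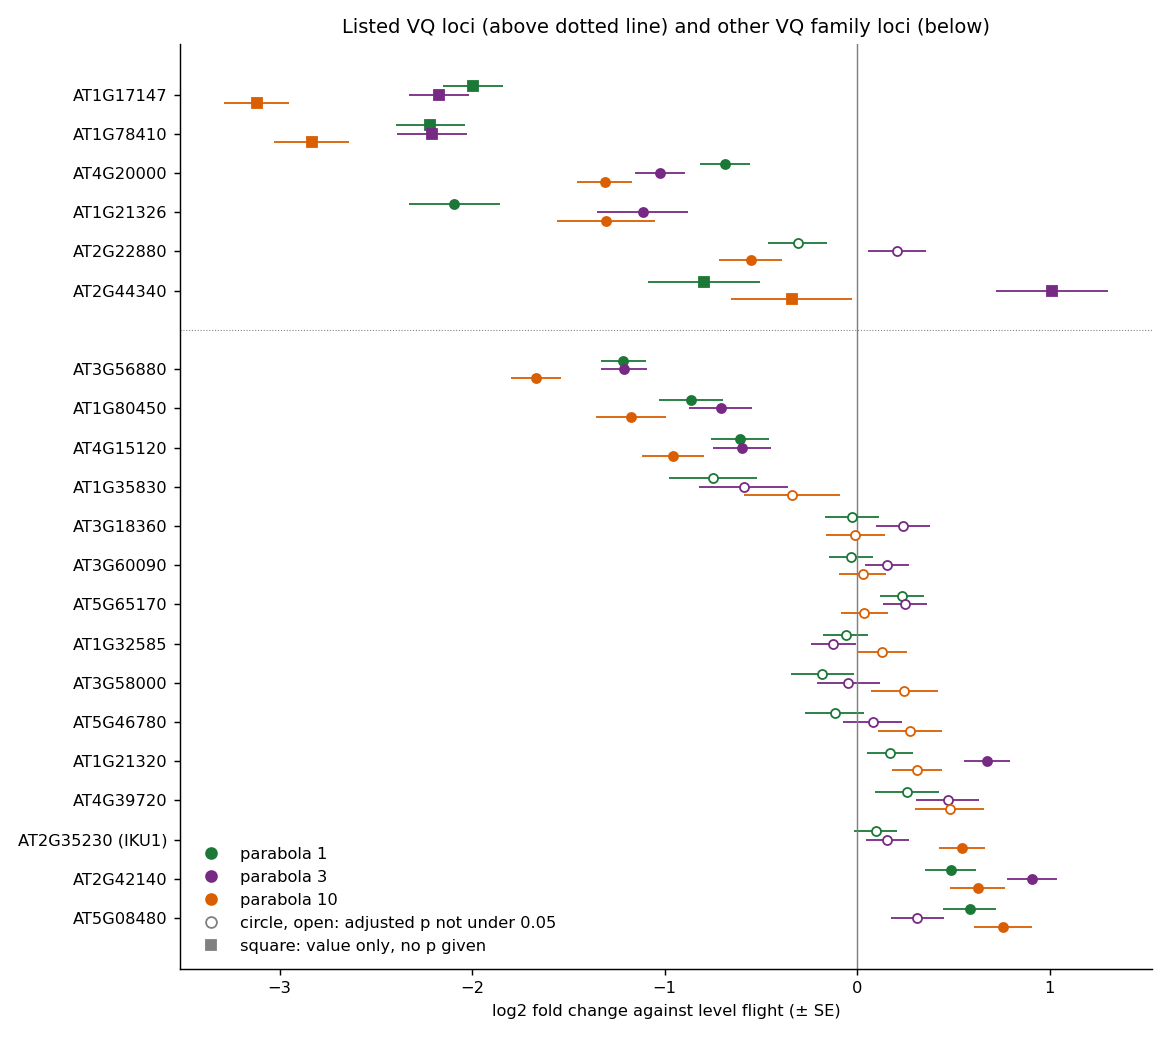
Log2 fold change against level flight with its standard error (horizontal axis) for the 6 listed VQ genes (top) and the 15 other measured family members (bottom), after parabola 1, 3 and 10; filled circles have an adjusted p under 0.05, open circles do not, and squares are listed genes given without a p-value. Listed genes reach -3.12 in AT1G17147, which was chosen by its fall in these arrays. Among the listed genes with a p-value the lowest is -2.09, in AT1G21326 after parabola 1. The other family members lie between -1.67 and 0.91.

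Of the WRKY transcription factors, the family from which VQ proteins bind members, only 7 genes were measured. Whether these 7 bind VQ proteins was not examined. Limma called 2 lower and 0 higher after parabola 1 (4.85% and 3.47% of all genes), 2 lower and 1 higher after parabola 3 (6.69% and 4.48%), and 2 lower and 0 higher after parabola 10 (7.11% and 7.53%). Their median log2 fold changes against level flight were -0.16, -0.17 and -0.17. WRKY22, a factor of the immune response downstream of a MAP kinase cascade, ran between 5.66 and 5.93 in level flight, between 3.83 and 4.87 after parabola 1, between 4.87 and 5.39 after parabola 3 and between 4.29 and 4.43 after parabola 10. It fell by 1.40 ± 0.17 after parabola 1 (limma adjusted p = 2.96e-05), by 0.64 ± 0.17 after parabola 3 (adjusted p = 0.0209) and by 1.39 ± 0.18 after parabola 10 (adjusted p = 3.72e-05). Like AT1G21326 it was higher after parabola 3 than after parabola 1 (0.76 ± 0.17, adjusted p = 0.0297). The parabola 3 call against level flight was lost without replicate 1 or 3 of level flight or replicate 2 or 4 of parabola 3 (adjusted p between 0.0517 and 0.0744), and the call against parabola 1 without replicate 3 or 4 of parabola 1 or replicate 1, 3 or 4 of parabola 3 (adjusted p between 0.0531 and 0.0837).

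WRKY6, which acts in senescence and the phosphate response, fell by 0.64 ± 0.13, 0.55 ± 0.13 and 0.99 ± 0.14 on the log2 scale after parabolas 1, 3 and 10 (limma adjusted p = 0.00438, 0.0107 and 9.03e-05). WRKY29, which acts beside WRKY22 in immunity, rose after parabola 3 (0.79 ± 0.20, limma adjusted p = 0.0132). Its difference was 0.09 ± 0.20 after parabola 1 and 0.52 ± 0.21 after parabola 10 (adjusted p = 0.119), and the parabola 10 value passed without replicate 3 of parabola 10 (0.79, adjusted p = 0.0157). Of the MAP kinase cascade, only 2 genes, ATMPK13 and ATMPK8, were measured and limma called neither. MPK3 and MPK6, of which MVQ1 and MVQ4 are named as targets, had no row annotated to exactly 1 gene. ATMPK13 differed from level flight by 0.59 ± 0.24 after parabola 1 (adjusted p = 0.165), by 0.70 ± 0.24 after parabola 3 (adjusted p = 0.0726) and by 0.61 ± 0.26 after parabola 10 (adjusted p = 0.136). All its parabola 10 arrays lay above level flight, as in 13.6% of all genes, but the lowest was at 4.99 and the highest level-flight array at 4.98. The parabola 3 difference passed without replicate 4 of parabola 1 (adjusted p = 0.0480). ATMPK8 differed by 0.00 ± 0.09, -0.07 ± 0.09 and 0.02 ± 0.10 after parabolas 1, 3 and 10.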

How the data were processed

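The authors deposited log2 expression values per probe set. Per the submitters' processing notes, RMA and the packages oligo and limma under R 4.0.0 were used with the build TAIR10, in roles that are not given. Per the labels' protocols, RNA was DNase-treated and labelled as sense-strand DNA. The table held 38408 rows for 15 arrays. The platform annotation gave 1 gene to 16722 rows, several to 759 and none to 20927. For genes with several rows the row with the highest mean was kept, leaving 16550 genes. No listed gene had more than 1 row. The reference table is TAIR10.1, not the build named by the submitters, so no coordinates are given.

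One limma fit (version 3.58.1, lmFit and eBayes, run under R 4.3.3) gave the 4 group means from all arrays together. Tests were two-sided, with Benjamini-Hochberg adjustment within each of 6 contrasts, and an adjusted p under 0.05 was a call. The code was tested on simulated data. The number of arrays limits the precision.

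The listed genes, gene lists and tests were chosen with earlier results of these data known. Up to 4 genes of each further list were named by smallest F-test p, and the 3 genes most like each of AT1G17147, AT1G78410 and AT2G44340 by Pearson r over 15 arrays. Alternatives were other scalings, filters, rows, variance models, weights, a covariate, a replicate block, thresholds and omission of each array. The deviations of same-numbered arrays had correlations between -0.0761 and 0.106, and in no comparison were all above 0.1, so the numbers were not taken to pair samples. This does not exclude pairing. Against level flight, 4 of 4 parabola 1 and 3 of 4 parabola 3 arrays were nearest to the array of their own number. In each other comparison 0 or 1 array was. Promoter and protein sequences were not used here.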

Additional observations from a re-analysis of the deposited data

Results flagged for a closer look

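Among 30 VQ, WRKY and MAP kinase genes, 90 groups of 4 arrays were examined for 1 array far from the other 3, and 6 held one. Chance alone sets about 1 in 20 such groups apart. None of the 18 groups of the 6 listed VQ genes was among them. AT1G80450 was at 3.67 in replicate 2 of parabola 1, with the other arrays between 3.26 and 3.28. AT5G46780 was at 6.26 in replicate 1 of parabola 3, with the others between 5.77 and 5.80, and AT5G65170 in the same array was at 3.93, with the others between 3.52 and 3.58. WRKY47 (AT4G01720) was at 6.52 in replicate 4 of parabola 1, below the others at 6.69 to 6.70. WRKY41 (AT4G11070) was at 2.76 in replicate 3 of parabola 3, with the others between 2.18 and 2.27. WRKY29 (AT4G23550) was at 7.45 in replicate 1 of parabola 1, below the others at 7.95 to 7.99.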

How the results depend on the processing

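Counts of listed VQ genes called against level flight stayed within 1.5 times the value reported under every alternative run, and no called gene reversed. They were 3 to 6 after parabola 1, 4 to 5 after parabola 3, and 4 to 5 after parabola 10. With only 6 genes, no count could pass the limit of 1.5 times upwards, so it could fail only on the lower side. The counts between parabola groups moved. For parabola 3 against parabola 1 the count was 2, and it was 1 with all rows, with the replicate block, with the median of rows with no gene as a covariate, at an adjusted p under 0.01 and with a 2-fold minimum. For parabola 10 against parabola 3 it was 3, and it was 1 with centring on reference genes, with all rows, at an adjusted p under 0.01 and with a 2-fold minimum, and 0 with the covariate and with only the arrays of the 2 groups. For parabola 10 against parabola 1 it was 2, and it was 1 with a repeated quantile normalization, with centring on reference genes, at an adjusted p under 0.01 and with a 2-fold minimum, and 0 with the covariate. Calls over all 16550 genes fell with the covariate too. They were 52 beside 285 for parabola 3 against parabola 1, and 58 beside 193 for parabola 10 against parabola 3. For parabola 10 against parabola 1 they were 3 beside 589. Leaving out 1 array at a time gave 1 to 3 called listed genes in each of these 3 comparisons. With the replicate number as a block the counts were 4, 5 and 5 against level flight, 2 for parabola 10 against parabola 3 and 2 for parabola 10 against parabola 1. Every parabola 1 array was nearest in its deviations to the level-flight array of its own number, and 3 of 4 parabola 3 arrays were, though no correlation reached 0.1. The covariate ran between 3.84 and 3.92 in level flight, 3.93 and 4.02 after parabola 1, 3.78 and 3.98 after parabola 3, and 3.69 and 3.85 after parabola 10; the cause of the changes was not tested. Median centring moved the median of all genes for parabola 10 against parabola 1 to 0.15, beside 0.04 as deposited, and left 17.7% of all calls lower, beside 51.3%.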
